A study of Schmidtea mediterranea with 6 samples.

Results

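The 2 *apolipoprotein b* paralogs of the planarian flatworm *Schmidtea mediterranea*, *apob-1* (dd_Smed_v6_636_0_1, 11557 bases) and *apob-2* (dd_Smed_v6_194_0_1, 17568 bases), were described across 6 RNA-seq libraries. They are 2 of the 28069 transcripts in the count table, and both were among the 14871 transcripts kept after a filter on low counts. The pair was chosen by its measured change in this same comparison, so its levels and fold changes are given as a description with no test. Libraries were made from whole, uninjured asexual animals of the clonal line CIW4. The control group, *egfp(RNAi)*, and the *nkx2.2(RNAi)* group, in which the gene for the intestine-enriched transcription factor Nkx2.2 was targeted, each had 3 libraries. All animals were fed once with 1 µg of double-stranded RNA in beef liver paste and then starved for 7 days, and each library was made from a pool of 6 to 10 animals per the labels. The study's methods give a slightly smaller pool. Whole animals were used, so fewer intestinal cells and less RNA per cell cannot be told apart.

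ApoB is a very large secreted protein that wraps neutral lipids into lipoprotein particles. In vertebrates, intestinal and liver cells load it with triglycerides, cholesteryl esters and phospholipids with the help of microsomal triglyceride transfer protein (MTTP), and receptors of the LDL receptor family take the particles up in other tissues. Animals without a liver can make lipoproteins in the intestine or in a comparable storage tissue, and the planarian intestine stores neutral lipid after feeding.

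The transcripts are different sequences, and a stretch of the cDNA clone listed by the study for each is shown because the comparison turns on telling the paralogs apart. Capitals mark the longest run of letters that the readable parts of both clones, 399 bases each, share on the same strand.
apob-1 clone, bases 1 to 150: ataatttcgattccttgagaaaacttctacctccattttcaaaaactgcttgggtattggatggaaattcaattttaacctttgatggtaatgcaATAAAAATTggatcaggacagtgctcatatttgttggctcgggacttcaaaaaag
apob-2 clone, bases 241 to 390: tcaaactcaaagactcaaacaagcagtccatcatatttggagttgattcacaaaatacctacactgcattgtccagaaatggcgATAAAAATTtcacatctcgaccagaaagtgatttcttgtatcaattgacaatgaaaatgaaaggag
The shared run was 9 bases, the longest run shared on opposite strands was 11 bases, and no word of 20 bases occurred in both. A and T made up 69.9% of the readable *apob-1* clone and 62.4% of the *apob-2* clone. The stretches cover a small part of each transcript, and their places on the transcripts were not determined. The short shared run therefore does not show how alike the paralogs are at matching positions, and reads shared elsewhere between them were not examined. Each transcript is also the only member of its assembly component in the table.

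The study's qPCR primers for each paralog are listed below. None was found in the readable part of its own clone. Their sites on the full transcripts, and whether they match the other paralog there, were not examined.
apob-1 forward primer: ggtaactcagatgtcgtgggta
apob-1 reverse primer: gctgaacaagcatcagaagg
apob-2 forward primer: tcagtctgagagcaacacca
apob-2 reverse primer: gtgcagttgtaatcgcaatc

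Library totals ranged from 53.3 to 65.5 M counts. These totals are above the read numbers that the study states, so whether a count is a fragment, a single read of a pair or an alignment is not settled, and counting intervals take each count as an independent read. The targeted transcript, *nkx2.2*, stood at 188 ± 27.6 CPM (counts scaled to library size with TMM factors) in controls and 8.87 ± 0.222 CPM after knockdown (SD, n = 3 each), 4.70% of the control mean. Of all transcripts tested, 808 (5.43%) were lower and 771 (5.18%) higher in *nkx2.2(RNAi)* at an FDR of 0.05 by the edgeR exact test. The edgeR quasi-likelihood test called 509 (3.42%) lower and 452 (3.04%) higher. *nkx2.2(RNAi)* replicate 1 stood apart from replicates 2 and 3: without it the exact test called 2523 lower and 2121 higher, whereas leaving out any other library gave 481 to 740 lower, the fewest without control replicate 1. Among neoblast, epidermal progeny, neuronal and pharynx markers (*piwi-1*, *tgs-1*, *prog-1*, *ChAT*, *laminin*), log2 fold changes lay between -0.14 and 0.01 and none passed the edgeR exact test, whose FDR was 0.363 or more.

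The *apob-1* transcript was nearly lost. Its counts were 40020, 37816 and 40012 in control replicates 1 to 3 and 427, 275 and 237 in *nkx2.2(RNAi)* replicates 1 to 3. In CPM these were 702, 709 and 667 in controls and 6.21, 5.18 and 4.33 after knockdown. The groups did not overlap, a pattern that 12.9% of all tested transcripts showed in this direction. The control libraries were close to each other, with a coefficient of variation (CV) of 3.23%, and what remained was 0.757% of the control mean. The log2 fold change was -7.04 (SE 0.14). In each *nkx2.2(RNAi)* library the remaining count lay well above zero: for replicate 3, with the fewest reads, the exact 95% Poisson interval was 208 to 269 counts, which covers counting error only. Reads that match several transcripts were counted at each, and their part in these remaining counts was not tested.

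The *apob-2* transcript fell in part and varied more. It had 31983, 61712 and 37867 counts in control replicates 1 to 3 and 20569, 12959 and 23361 in *nkx2.2(RNAi)* replicates 1 to 3. These corresponded to 561, 1157 and 631 CPM in controls and 299, 244 and 427 CPM after knockdown. All 3 *nkx2.2(RNAi)* libraries lay below all controls, but *nkx2.2(RNAi)* replicate 3 was closer to control replicate 1 than control replicate 1 was to control replicate 2. The CV was 41.6% among controls and 29.0% after knockdown, and 41.3% of the control mean remained. The log2 fold change was -1.28 (SE 0.40). Without control replicate 2, the highest library, it was -0.92, and it stayed between -1.55 and -0.92 when any library was left out.

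**Figure D1:**
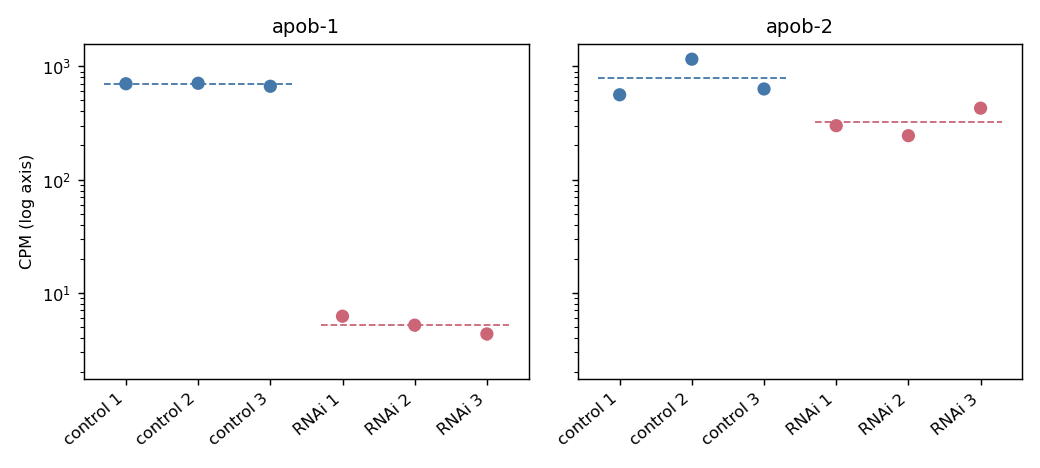
Level of *apob-1* (left) and *apob-2* (right) in each library, in CPM on a log axis, with control libraries in blue and *nkx2.2(RNAi)* libraries in red; vertical lines, mostly hidden by the points, are exact 95% Poisson intervals and dashed lines are group means. *apob-1* drops from about 693 to 5.24 CPM with tight controls, whereas *apob-2* drops from 783 to 323 CPM and control replicate 2 stands above the other controls.

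Raw counts favour the longer transcript, so levels were also expressed per length. In controls *apob-1* stood at 60.7, 61.3 and 57.7 CPM per kilobase, and *apob-2* at 31.9, 65.8 and 35.9. Per length, *apob-1* was thus the more abundant paralog in control replicates 1 and 3, by 1.90 and 1.61 times, and slightly the less abundant in replicate 2, at 0.932 times. By raw CPM the control mean of *apob-2* was the higher, at 783 against 693. After knockdown *apob-1* stood at 0.537, 0.448 and 0.375 CPM per kilobase and *apob-2* at 17.0, 13.9 and 24.3. On a log2 scale the ratio per length, *apob-1* over *apob-2*, was 0.50 ± 0.54 in controls and -5.32 ± 0.61 after knockdown (SD, n = 3 each). A single scaling factor per library cannot alter this change of -5.82, because both transcripts share each library. Scaling that differs with length can: relative to transcripts of like length, described below, the change was -5.58.

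The combined level of both paralogs per length was 92.7, 127 and 93.7 CPM per kilobase in the 3 controls. After knockdown it was 17.6, 14.3 and 24.7. The mean went from 104 ± 19.6 to 18.9 ± 5.29 CPM per kilobase (SD, n = 3 each), so that 18.1% of the control level remained. The loss of *apob-1* made up 69.5% of the combined fall and the loss of *apob-2* 30.5%. *apob-2* supplied 34.5%, 51.8% and 38.4% of the combined level in control replicates 1 to 3 and 96.9%, 96.9% and 98.5% after knockdown. What was left of *apob* transcript after *nkx2.2* knockdown was therefore almost entirely *apob-2*. Without length scaling, both paralogs together took 0.150% ± 0.0317 of all counts in controls and 0.0320% ± 0.00831 after knockdown (SD, n = 3 each).

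**Figure D2:**
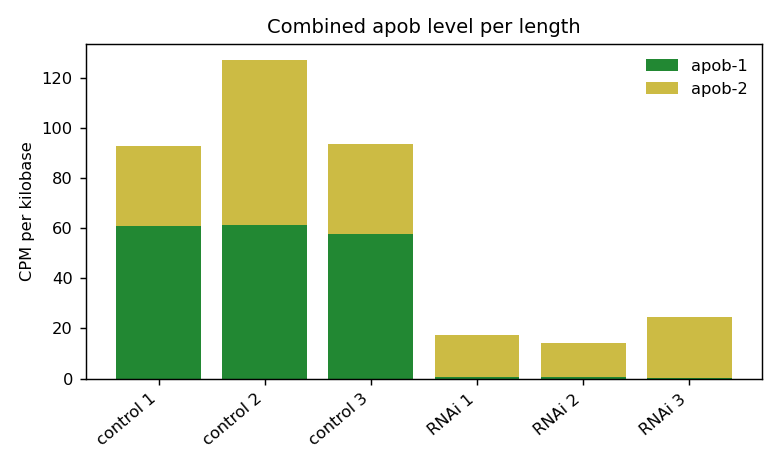
Combined level of the *apob* paralogs in each library, in CPM per kilobase, stacked as *apob-1* (green) below *apob-2* (yellow). Controls hold 92.7 to 127 CPM per kilobase from both paralogs, and *nkx2.2(RNAi)* libraries hold 14.3 to 24.7, nearly all of it *apob-2*.

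As a share of all transcripts in a library (counts divided by length, over the sum of these for the library, TPM), *apob-1* fell from 81.1 ± 3.56 to 0.596 ± 0.154 TPM and *apob-2* from 60.4 ± 25.3 to 23.9 ± 6.39 TPM (SD, n = 3 each). Combined, 141 ± 27.1 TPM became 24.5 ± 6.35 TPM. On this scale both paralogs were moderately abundant even in controls, with ranks that differed by library.
Among all 28069 transcripts, *apob-1* ranked 1862, 1846 and 2016 by TPM in control replicates 1 to 3 and 17207, 17120 and 17922 after knockdown. *apob-2* ranked 3472, 1720 and 3126 in controls and 5933, 6694 and 4494 after knockdown. By raw counts the long transcripts stood much higher, with *apob-1* at rank 181 and *apob-2* at rank 238 in control replicate 1.

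Next, both paralogs were set beside other long transcripts. Of the 97 tested transcripts of at least 8000 bases, *apob-2* was the third longest and *apob-1* was number 36 by length. By control mean CPM they ranked 5 (*apob-2*) and 7 (*apob-1*) in this class, and by mean CPM after knockdown 9 and 96. The other 95 had a median log2 fold change of 0.26, and 78 of them had a positive value. The exact test in edgeR called 2 of the 95 lower and 1 higher, against 5.43% lower and 5.18% higher of all transcripts tested. The next lowest after the paralogs was dd_Smed_v6_7924_0_1, whose best human BLAST hit is the basement membrane chain LAMA1, at -0.63. The highest was dd_Smed_v6_4569_0_1, with a hit to the dynein heavy chain DNAH5, at 0.80, which did not pass the edgeR exact test (FDR 0.062). *apob-1* and *apob-2*, at -7.04 and -1.28, therefore held the lowest values of the class, and since the pair was chosen for its fall this order is a description.

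**Figure D3:**
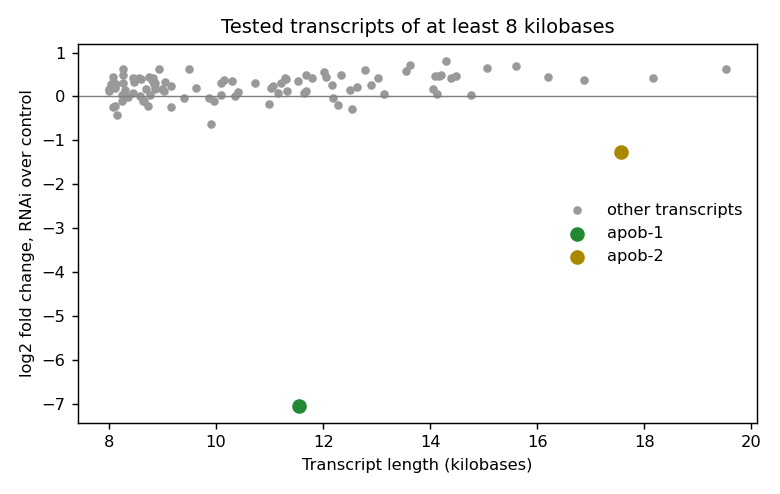
Log2 fold change (*nkx2.2(RNAi)* over control) against length in kilobases for the 97 tested transcripts of at least 8 kilobases, with *apob-1* in green, *apob-2* in ochre and the other 95 in grey. The grey points lie between -0.63 and 0.80, mostly above 0, and both paralogs lie below them.

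A narrower set of peers held tested transcripts within 2-fold of a paralog in both length and control mean CPM. *apob-1* had 11 such peers, *apob-2* among them, with log2 fold changes of -1.28 to 0.70 and a median of 0.34. Apart from *apob-2*, the peers lay between 0.01 and 0.70. The longest of those was dd_Smed_v6_876_0_1 (10347 bases, log2 fold change 0.01), and the named ones had best human hits to the spectrin SPTBN1 (0.70), the protease inhibitor A2ML1 (0.60) and the non-muscle myosin MYH10 (0.56). For the paralogs the best human hits listed were APOB (*apob-1*) and MUC2 (*apob-2*), and the names used here are those of the study. *apob-2* had only 2 peers, *apob-1* and dd_Smed_v6_756_0_1 (10094 bases, log2 fold change 0.04), because few transcripts are so long and so abundant. Within 3-fold *apob-2* had 17 peers, with a median of 0.29, and *apob-1* was the single peer that lay lower.

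The spread of *apob-2* among controls was shared by other long transcripts, and that of *apob-1* was not. Transcripts of like length were taken as those within 1.25-fold of a paralog in length with a mean of at least 10 CPM, a set defined after the data had been seen. The 15 transcripts of like length to *apob-2* ran from 14056 to 19524 bases. Their median log2 CPM, as a deviation from each transcript's own mean over 6 libraries, was -0.78, 0.31 and -0.34 in control replicates 1 to 3 and 0.26, 0.23 and 0.35 in *nkx2.2(RNAi)* replicates 1 to 3. All 15 lay below their own mean in control replicates 1 and 3, and all 15 above it in control replicate 2. As deviations from the mean of its own group, *apob-2* stood at -0.40, 0.64 and -0.23 in controls, and the class median at -0.51, 0.58 and -0.07. After knockdown *apob-2* stood at -0.07, -0.37 and 0.44 and the class at -0.02, -0.05 and 0.07, and the CV of *apob-2* among these libraries (29.0%) was above that of 14 of the 15, whose own CVs ran from 4.54% to 31.7%. The median control CV of the class was 39.5%, close to the 41.6% of *apob-2*, and 6 of the 15 had a higher CV.

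Expressed relative to this class, *apob-2* was steadier in controls and its difference was larger. The control SD of its log2 level fell from 0.56 to 0.14, whereas among the *nkx2.2(RNAi)* libraries the SD was 0.41 on the plain scale and 0.34 relative to the class. The difference of mean log2 levels between the groups was -1.24 on the plain scale and -1.78 relative to the class. The class median was low in control replicates 1 and 3 (-0.78 and -0.34). In control replicate 2 (0.31) it lay within the range of the *nkx2.2(RNAi)* libraries (0.23 to 0.35). Which scale is nearer to the amount of *apob-2* RNA was not tested.

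*apob-1* behaved differently from its class. The 46 transcripts of like length, from 9405 to 14393 bases, had class medians of -0.55, 0.30 and -0.20 in control replicates 1 to 3 and 0.15, 0.05 and 0.26 in *nkx2.2(RNAi)* replicates 1 to 3. The control CV of *apob-1* (3.23%) was lower than that of 44 of the 46, whose median was 30.9%. Relative to the class, the control SD of log2 *apob-1* rose from 0.05 to 0.42, and the difference between groups was -7.23 in place of -6.93 on the log2(CPM + 0.5) scale. The library pattern of the class was thus present in *apob-2* and not seen in *apob-1*, and the part it plays in either result was not tested.

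**Figure D4:**
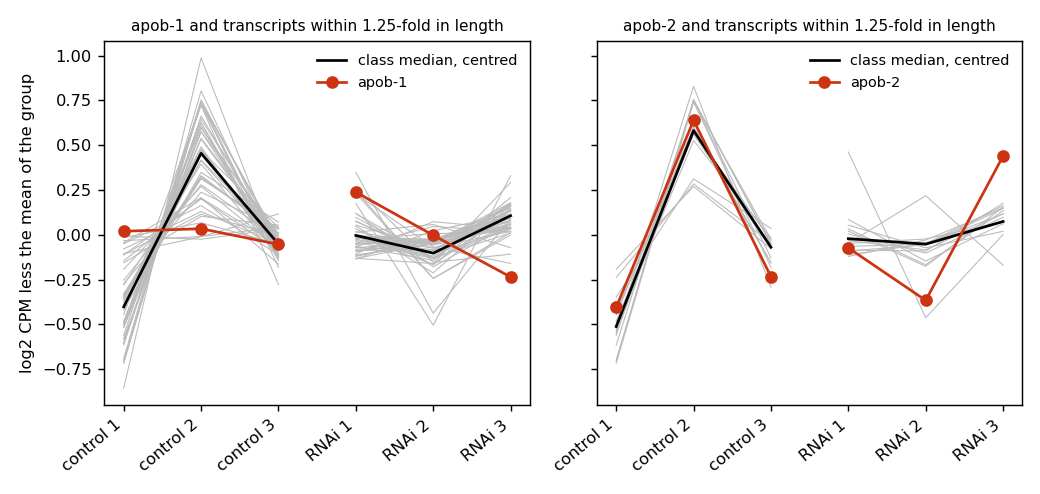
Log2 CPM in each library less the mean of its group, for *apob-1* (left, red) and *apob-2* (right, red), the other transcripts within 1.25-fold in length (grey lines, 46 and 15) and the median of these as centred on each group (black). In controls the red line for *apob-2* follows the black one (0.64 against 0.58 in control replicate 2), while that for *apob-1* stays near 0.

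The library pattern grew with length among transcripts above 2000 bases. The median deviation in control replicate 1 was 0.01 for the 4140 other transcripts under 1000 bases, -0.05 for those of 2000 to 4000 bases, -0.21 for those of 4000 to 8000, -0.47 for those of 8000 to 14000 and -0.78 for the 15 of at least 14000 bases. Control replicate 2 moved the other way, from -0.03 to 0.31 over the same classes. The median control CV first fell, from 10.5% under 1000 bases to 7.56% at 1000 to 2000 and 6.90% at 2000 to 4000, and then rose to 13.2%, 24.3% and 39.5% in the longer classes. After knockdown it was 14.7% in the shortest class and 9.08% in the longest.

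Because *nkx2.2(RNAi)* replicate 1 stood apart, its place was measured for each paralog. On the log2 scale, the shift of replicate 1 from the control mean was 94.9% of the shift in replicates 2 and 3 for *apob-1* and 109% for *apob-2*. Over the 806 other transcripts called lower, the median was 86.4%, with quartiles of 53.6% and 111%. Over the 76 of these that were lower by at least 8-fold, nearer to *apob-1* in size of change, the median was 103%, with quartiles of 97.6% and 108%, and *apob-1* lay just below the lower quartile. Without replicate 1 their log2 fold changes were -7.19 and -1.22.

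Genes that act with ApoB were then examined. *mttp* (dd_Smed_v6_5671_0_1), the planarian ortholog of the protein that loads lipid onto ApoB, stood at 72.6, 58.1 and 73.8 CPM in controls and 85.6, 58.8 and 56.6 CPM in *nkx2.2(RNAi)*. Its groups overlapped (68.1 ± 8.74 against 67.0 ± 16.2 CPM, SD, n = 3 each), and its log2 fold change of -0.02 (SE 0.22) did not pass the edgeR exact test (FDR 0.951, and 0.145 to 1 over the alternatives). Per length, *mttp* (24.4 CPM per kilobase in controls and 23.9 after knockdown) lay below both paralogs in controls and, by group mean, above the remaining *apob-2* after knockdown (18.4 CPM per kilobase). That order did not hold in *nkx2.2(RNAi)* replicate 3, where *mttp* stood at 20.2 and *apob-2* at 24.3 CPM per kilobase. The lipoprotein receptors *vldlr-1*, *ldlr-1* and *ldlr-2* had log2 fold changes of -0.39, -0.16 and 0.12, none past the edgeR exact test (FDR 0.290, 0.392 and 0.455). Of the intestinal markers, *ctsla* (cathepsin La) fell to 37.3% of its control mean and *slc22a6* rose to 158% (edgeR exact test FDR 5.06e-11 and 5.45e-09), while *npc2* stood at 103% (FDR 0.908). The 41.3% of *apob-2* lay within that range. The 0.757% of *apob-1* lay below it.

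Other transcripts of lipid handling were taken from Gene Ontology lists that the study assigned in a regeneration transcriptome, and are counted without the paralogs. Of 47 tested transcripts in the lipid transport list, 6 were lower and 3 higher by the edgeR exact test, with a median log2 fold change of -0.04. Of 142 in the triglyceride list, 20 were lower and 10 higher, with a median of -0.03. Of 154 in the cholesterol list, 20 were lower and 10 higher, with a median of -0.03. The shares called lower were 12.8%, 14.1% and 12.99%, against 5.43% of all transcripts, whose median was 0.02. The shares called higher were 6.38%, 7.04% and 6.49%, against 5.18%. The quasi-likelihood test in edgeR kept 6, 19 and 16 of the lower calls and 0, 4 and 6 of the higher calls, with no call beyond those of the exact test, for backgrounds of 3.42% and 3.04%. Counts depended on single libraries: without *nkx2.2(RNAi)* replicate 1 the exact test called 36 lower and 20 higher in the triglyceride list and 34 lower and 25 higher in the cholesterol list, and without control replicate 3 the lower count of the cholesterol list was 12. Over all libraries left out in turn, higher counts ran from 0 to 4, 2 to 20 and 4 to 25 in the lipid transport, triglyceride and cholesterol lists. At an unadjusted p under 0.05 the quasi-likelihood test had 10 lower and 6 higher in the lipid transport list. The share of all transcripts at that threshold is not given, so these 2 counts have no background. No set test was run, and most listed transcripts passed in neither direction.

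**Figure D5:**
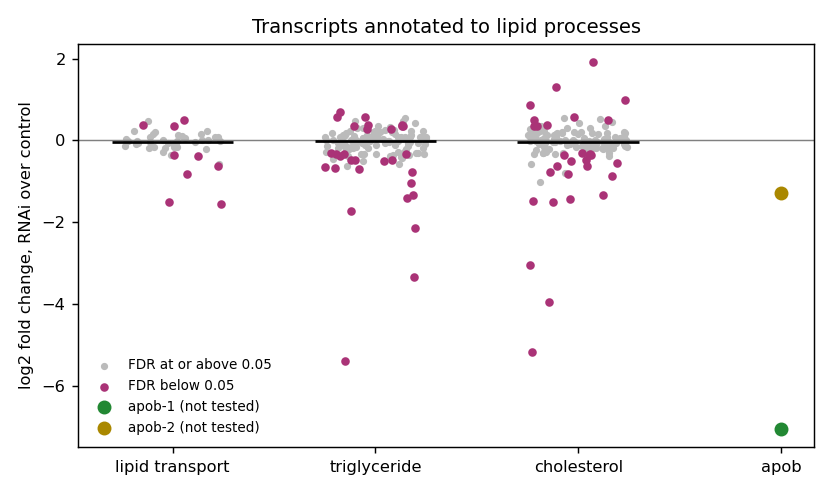
Log2 fold change (*nkx2.2(RNAi)* over control) of each tested transcript in the lipid transport (47), triglyceride (142) and cholesterol (154) lists, in purple where the edgeR exact test FDR was below 0.05, with horizontal bars at the list medians and the *apob* paralogs at the right (not tested). The medians lie at -0.04, -0.03 and -0.03, and a few transcripts lie far below 0, none as low as *apob-1*.

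Both paralogs carried the same 9 terms. Among the other members of those terms, calls by the edgeR exact test are given beside backgrounds of 5.43% lower and 5.18% higher, and calls by the edgeR quasi-likelihood test beside 3.42% and 3.04%. Of 52 tested for cholesterol homeostasis, 10 were lower and 4 higher by the exact test, and 7 and 2 by quasi-likelihood. Of 29 for cholesterol metabolism, 7 were lower and 2 higher, and 5 and 2 by quasi-likelihood. Of 14 for cholesterol efflux, 4 were lower and 2 higher, and 3 and 1 by quasi-likelihood. The other carried terms had fewer lower calls in number by the exact test, though not all had a smaller share. Of 14 for cholesterol transport, 1 was lower and 2 higher, and 1 and 0 by quasi-likelihood. Of 22 for triglyceride catabolism, 3 were lower and 3 higher by both tests. Of 26 for regulation of cholesterol biosynthesis, 1 was lower and 2 higher, and 1 and 1 by quasi-likelihood. Of 6 for triglyceride mobilization, 0 were lower and 2 higher, and 0 and 1 by quasi-likelihood. Of 3 for positive regulation of cholesterol storage, 1 was lower and 1 higher, and 0 and 1 by quasi-likelihood. The term for positive regulation of lipid transport had no other member.

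Of terms that the paralogs did not carry, only some are given here, and they differed in direction. Triglyceride metabolism had 3 of 35 lower and 5 higher by the exact test, and 3 and 1 by quasi-likelihood. Triglyceride homeostasis had 5 of 37 lower and 0 higher by both tests. Glycolipid transport had 0 of 5 lower and 2 higher by the exact test, and 0 and 0 by quasi-likelihood. Triglyceride biosynthesis had 5 of 13 lower and 2 higher by the exact test, and 4 and 1 by quasi-likelihood. Sequestering of triglyceride, the storage of fat in droplets, had 3 of 9 lower and 0 higher by both tests. Cholesterol biosynthesis had 0 of 26 lower and 1 higher by both tests. That higher call was a transcript with a best human hit to GGPS1, also counted for regulation of cholesterol biosynthesis. It passed the filter on low counts only through the *nkx2.2(RNAi)* libraries. At an unadjusted p under 0.05 the exact test had 1 lower and 4 higher for cholesterol biosynthesis, 5 lower and 1 higher for sequestering of triglyceride, and 0 lower and 2 higher for triglyceride mobilization. The share of all transcripts at that threshold is not given, so no excess or lack can be read from these counts.

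The listed transcripts that fell most did not all handle lipid directly. Names are those of best human BLAST hits. The lowest in the triglyceride list was PANK1 (pantothenate kinase, which starts coenzyme A synthesis, dd_Smed_v6_3794_0_1), at a log2 fold change of -5.38 with an SE of 0.15 and an FDR of 1.93e-187 in the edgeR exact test. It was followed by the dicarboxylate transporter SLC13A3 (-3.33), the gastric triacylglycerol lipase LIPF (-2.14), a further pantothenate kinase, PANK2 (-1.72), and the ether lipid cleaving enzyme AGMO (-1.40). In the cholesterol list the lowest was the elastase-like protease CELA1 (-5.16), followed by 2 ABCG2-like transporters (-3.94 and -3.06), the endoplasmic reticulum protein CLN8 (-1.51) and the cholesterol hydroxylase CYP46A1 (-1.49). In the lipid transport list the lower transcripts named here were the lysosomal channel MCOLN2 (-1.56), CLN8, the phospholipid flippase ATP11B (-0.63) and the lipid droplet coat protein PLIN5 (-0.38). The transcripts named here passed both edgeR tests. PANK1 and CELA1 lay below 1 CPM in every *nkx2.2(RNAi)* library, so both passed the filter on low counts only through the controls.

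Fewer listed transcripts rose, and by less. GGPS1 (geranylgeranyl pyrophosphate synthase, dd_Smed_v6_35289_0_1) had the highest log2 fold change, 1.91 with an SE of 0.22 (FDR 1.69e-08, edgeR exact test), from a low level of 0.852 to 3.21 CPM. All its control libraries lay below 1 CPM, so it passed the filter on low counts only through the *nkx2.2(RNAi)* libraries. SYT7, a calcium sensor of membrane fusion, rose by 1.30 on the log2 scale, the cholesterol esterifying enzyme SOAT1 (dd_Smed_v6_2567_0_1) by 0.99 and APLP2 by 0.87. In the triglyceride list glycerol kinase (GK) rose by 0.69, the fatty acid-binding protein FABP7 by 0.58 and CPS1, a urea cycle enzyme, by 0.37. These 7 passed both edgeR tests. The other 5, acetyl-CoA carboxylase ACACA (0.57), NPC2 (0.49, dd_Smed_v6_704_0_1), the glycolipid transfer protein GLTP (0.37), dd_Smed_v6_160_0_1 (0.38) and dd_Smed_v6_933_0_1 (0.35), passed the exact test but not the quasi-likelihood test.

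Finally, the transcripts whose pattern was most like each paralog were listed, by Pearson's r of log2(CPM + 0.5) over 6 libraries, among 9538 other transcripts with a mean of at least 10 CPM. These points share libraries and groups, so r is a description. For *apob-1* the 5 with the highest r (0.999 each) had best human hits to the cation exchanger SLC24A5, the channel MCOLN2, the D-aspartate oxidase DDO, the dehydratase L3HYPDH and the matrix protein HMCN1. SLC24A5 (dd_Smed_v6_7121_0_1) stood at 74.8, 68.8 and 73.8 CPM in controls and 10.4, 10.1 and 9.27 CPM after knockdown. Their log2 fold changes, from -3.02 to -0.88, were all smaller than the -7.04 of *apob-1*, since r ignores the size of a change. In all, 494 transcripts (5.18%) reached an r of 0.9 with *apob-1*.

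*apob-2* had fewer close matches, with 102 transcripts (1.07%) at an r of 0.9 or more, and its r with *apob-1* was 0.83. The 5 most like it by level, led by dd_Smed_v6_1885_0_1 (r = 0.995), had no human hit listed and small log2 fold changes of -0.24 to -0.08. dd_Smed_v6_1885_0_1 stood at 368, 409 and 373 CPM in controls and between 321 and 359 CPM after knockdown, the same order of libraries as *apob-2* over a much narrower range. By deviation from the group means, 361 transcripts (3.78%) reached an r of 0.9 with *apob-2*. The 5 highest were led by dd_Smed_v6_13453_0_1 (r = 0.994) and included dd_Smed_v6_1434_0_1, a transcript of only 791 bases with 32.5, 62.9 and 37.1 CPM in controls and 52.4, 41.7 and 64.6 CPM after knockdown. None of the 5 was of like length to *apob-2*, as their lengths ran from 791 to 4459 bases. On the same measure the r of *apob-2* with *apob-1* was -0.28.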

How the data were processed

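RNA-seq libraries were aligned by the authors with Bowtie2 (2.3.1) to dd_Smed_v6 transcripts. The deposited table holds unnormalized whole-number counts from featureCounts (Subread 1.6.3) per the submitters' processing notes, with transcript lengths, although whether the table is that tool's output is not settled; reads that match several transcripts were counted at each, per the study's methods. A nameless row of 0 counts was left out. Columns of the authors' own comparison (fold changes and p-values) were not used. Transcripts above 1 CPM in at least 3 libraries were scaled by TMM and tested with the edgeR (4.0.16) exact test with Benjamini-Hochberg adjustment, as in the study. Alternatives were edgeR quasi-likelihood, DESeq2 (1.42.0), limma-voom (limma 3.58.1), other scalings and filters, and leaving out each library. On counts simulated for this comparison (14871 transcripts, 200 changed), the exact test recovered 191 with 13.6% false calls, and the quasi-likelihood test 187 with 5.08%. The simulation drew each transcript independently, without the library pattern that grew with length, and changed fewer transcripts than were called in the data. Its shares of false calls therefore need not hold for the real libraries. SE values are from log2(CPM + 0.5) in each library. Libraries are pools of clonal animals, called biological replicates in the labels; separate cultures are not stated, so p-values measure the spread between these pools. Named transcripts were the 5 lowest and 5 highest fold changes past the FDR threshold in each lipid list and the 5 most alike to each paralog. An item that this rule selects in the lipid transport list is not reported here. Human hits come from supplementary sheets shortened in order of significance. The members and lists were chosen with earlier results of these data known. Library totals of 53.3 to 65.5 M counts give counting intervals narrower than the spread between libraries for both paralogs, except for *apob-1* after knockdown, where they are of like size.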

Additional observations from a re-analysis of the deposited data

How the results depend on the processing

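Of 210 recomputed values, 159 were labelled unchanged, 45 moved and 6 reversed in sign. A level, ratio or fold change was unchanged if it kept its sign and moved by less than the SD within groups. A count of calls was unchanged if it stayed within 1.5-fold of the main count. For *mttp*, unchanged meant the same sign and no pass of the FDR threshold. Some of the unchanged values could not have moved. A single scaling factor per library cancels in the ratio and in the share. Summing by assembly component repeats the main value, since each paralog is alone in its component. *apob-1* stayed between -7.38 and -6.95 (log2), *apob-2* between -1.76 and -0.92, the log2 ratio change between -6.13 and -5.47, and the *apob-2* share after knockdown between 96.9% and 97.7%. Relative to transcripts of like length, a scale chosen after seeing the data, *apob-1* was at -7.38, *apob-2* at -1.76 and 12.95% of the combined level remained. The class medians were lower in control replicates 1 and 3 than in all other libraries. TPM, also chosen after seeing the data, gave 17.3% for the combined level. Leaving out single libraries gave -7.19 to -6.95 for *apob-1*, -1.55 to -0.92 for *apob-2* and 15.3% to 20.3% for the combined level. The same gave 481 to 2523 lower and 307 to 2121 higher calls over all transcripts. The lists ranged from 5 to 9 lower and 0 to 4 higher (lipid transport), 16 to 36 and 2 to 20 (triglyceride), and 12 to 34 and 4 to 25 (cholesterol). Over all transcripts, quasi-likelihood called 509 lower and 452 higher and limma-voom 533 and 459. Higher calls were 0, 4 and 6 (quasi-likelihood) and 0, 3 and 6 (limma-voom) in the lipid transport, triglyceride and cholesterol lists. Higher calls in the triglyceride list were 6 with RLE factors, 4 with library size only, 6 with no filter and 6 with filterByExpr. *mttp* changed sign within noise, at -0.24 to 0.056 without single libraries (0.023 and 0.036 without control replicates 1 and 3, 0.035 and 0.056 without *nkx2.2(RNAi)* replicates 2 and 3). The *apob-1* value less its peer median was -7.38, and -7.64 to -7.16 without single libraries. For *apob-2* it was 2.23 with 2 peers, 1 of them *apob-1*, so the sign carries no meaning: it was -1.57 within 3-fold, and -0.91 to 2.38 without single libraries. No peers of *apob-2* lay within 1.5-fold. The cause of these moves was not tested. Same-numbered libraries correlated at 0.41, 0 and 0.17, and libraries of unlike number at -0.39 to 0.25. These ranges overlapped, and the numbers were not taken as pairs. Quasi-likelihood with the replicate block gave log2 fold changes of -7.05 (*apob-1*) and -1.23 (*apob-2*). It called 1075 transcripts lower and 797 higher, against 509 and 452 without the block. Those counts were labelled unchanged because the main count is that of the exact test.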
